A study of Mus musculus with 2 samples.

Results

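The postsynaptic scaffold genes described here are 9 genes of the postsynaptic density: Homer1, Dlg4, Dlg2, Shank1, Shank2, Shank3, Dlgap1, Camk2a and Camk2b. They were chosen by name, 9 of the 21851 protein-coding genes in the annotation, and each was taken as its gene body plus 50 kb either side. DNase-seq, in which DNase I cuts accessible chromatin and the cut bases are sequenced, was done on left cerebral cortex from female mice of the F1 hybrid strain B6CASTF1/J at 4 days of age. The series has 1 group of 2 libraries, called replicate 1 and replicate 2. Their labels carry separate animal numbers and a single strain-level donor, and no treatment, genotype, age or tissue was compared. The samples are tissue with many cell types, so a low value from fewer cells with an open site and one from less cutting per cell cannot be told apart.

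The postsynaptic density is a protein mesh under the membrane of excitatory synapses that holds glutamate receptors opposite the release sites. Dlg4 encodes PSD-95 and Dlg2 its relative PSD-93, membrane-associated guanylate kinases that bind receptors and channels. Dlgap1 encodes GKAP, which links them to the Shank proteins, and Homer1 joins Shanks to metabotropic glutamate receptors. Camk2a and Camk2b encode the alpha and beta subunits of CaMKII, the calcium-dependent kinase that is among the most abundant proteins of the structure in the adult forebrain. Much of this assembly is built up over the first postnatal weeks, while synapses form.

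A region cut more than its surroundings is a DNase I hypersensitive site (DHS). Each library had a stricter and a lenient list of calls, and the stricter one is meant below unless the lenient one is named. Where calls of both libraries overlapped, their union is a shared DHS. Promoter DHSs lie within 1 kb of the start of a protein-coding transcript, and distal DHSs lie outside every such window. The signal value is the authors' tag density of a call. Its scaling is not stated, so the libraries are given side by side. The stricter lists held 59355 calls in replicate 1 and 46566 in replicate 2, with 26012 shared DHSs, of which 14582 were at promoters and 11430 were distal. Small signal values were whole multiples of 0.00467 in replicate 1 and of 0.00788 in replicate 2, for 100% of the values checked and to 0.05 of that unit, as 1 tag would give at an implied depth of 214 and 127 times 1000000 tags. Of 7 forebrain and cortical neuron markers, 7 had a promoter call in replicate 2 and 3 in replicate 1. None of 3 astrocyte, 3 microglia and 2 endothelium markers was called in either library, while Mbp and Gad1 were, among 2 oligodendrocyte and 2 interneuron markers. The part that the mix of cells takes in the member values was not tested.

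The sequences below show exon-free stretches of promoter DHSs of 5 members, in gene direction and in the GRCm38.p6 reference, which carries the B6 allele only. Capitals mark bases inside footprints, short intervals protected from cutting, of both libraries. Stretches with an annotated exon were left out, and none is given for Camk2a. In the Dlg2 and Tmem126b stretch all capitals lie more than 1 kb upstream of the first Dlg2 start. The Dlg4 stretch belongs to a DHS with 1.04 in replicate 1 and 5.01 in replicate 2, next to the one with 1.15 and 6.48, and the Shank3 stretch to the upstream of its 2 promoter DHSs, with 0.953 and 2.97.
Homer1 promoter (chr13:93303521-93303756, plus strand): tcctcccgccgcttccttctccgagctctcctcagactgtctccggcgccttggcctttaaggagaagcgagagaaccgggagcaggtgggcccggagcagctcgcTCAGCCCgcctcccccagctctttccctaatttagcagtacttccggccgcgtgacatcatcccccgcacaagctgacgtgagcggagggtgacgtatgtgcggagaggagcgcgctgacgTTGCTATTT
Dlg4 promoter (chr11:70029201-70029486, plus strand): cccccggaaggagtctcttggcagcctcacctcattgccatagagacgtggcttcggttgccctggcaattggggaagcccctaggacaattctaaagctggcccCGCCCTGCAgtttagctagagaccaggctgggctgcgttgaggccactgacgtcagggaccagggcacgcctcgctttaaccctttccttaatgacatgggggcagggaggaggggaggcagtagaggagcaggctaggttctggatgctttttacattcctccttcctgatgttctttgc
Dlg2 and Tmem126b promoter (chr7:90476043-90476342, plus strand): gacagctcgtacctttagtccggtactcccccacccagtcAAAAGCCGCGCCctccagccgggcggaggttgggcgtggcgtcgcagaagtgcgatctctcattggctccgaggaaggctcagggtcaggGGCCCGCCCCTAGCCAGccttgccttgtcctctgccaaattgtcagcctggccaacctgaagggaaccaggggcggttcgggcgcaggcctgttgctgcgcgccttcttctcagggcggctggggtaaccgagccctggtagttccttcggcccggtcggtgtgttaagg
Shank3 promoter (chr15:89498742-89499041, plus strand): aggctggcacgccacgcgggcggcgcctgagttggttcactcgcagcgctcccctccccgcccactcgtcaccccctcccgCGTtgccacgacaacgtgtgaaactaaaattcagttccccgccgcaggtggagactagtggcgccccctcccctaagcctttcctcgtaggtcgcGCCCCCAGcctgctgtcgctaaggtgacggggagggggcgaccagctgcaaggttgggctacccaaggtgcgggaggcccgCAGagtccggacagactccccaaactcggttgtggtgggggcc
Camk2b promoter (chr11:6065861-6066160, minus strand): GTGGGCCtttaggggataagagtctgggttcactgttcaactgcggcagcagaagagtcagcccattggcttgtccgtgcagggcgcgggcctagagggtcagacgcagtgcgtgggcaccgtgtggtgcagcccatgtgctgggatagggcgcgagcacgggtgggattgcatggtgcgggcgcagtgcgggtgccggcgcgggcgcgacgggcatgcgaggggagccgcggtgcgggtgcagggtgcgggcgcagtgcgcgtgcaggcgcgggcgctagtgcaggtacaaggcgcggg

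The distal sequences below were chosen because they carry the strongest distal signal of their gene, a match to the motif of CTCF, the insulator protein, or footprints over other searched motifs. Capitals have the same meaning.
Dlg4 intron (chr11:70021433-70021732, plus strand): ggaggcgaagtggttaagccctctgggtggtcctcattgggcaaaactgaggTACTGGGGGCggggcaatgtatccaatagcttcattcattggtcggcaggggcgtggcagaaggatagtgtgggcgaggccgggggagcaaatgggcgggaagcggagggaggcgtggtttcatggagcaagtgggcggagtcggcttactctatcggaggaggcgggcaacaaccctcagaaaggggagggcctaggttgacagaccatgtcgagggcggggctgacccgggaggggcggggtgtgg
Shank1 downstream (chr7:44405781-44406080, plus strand): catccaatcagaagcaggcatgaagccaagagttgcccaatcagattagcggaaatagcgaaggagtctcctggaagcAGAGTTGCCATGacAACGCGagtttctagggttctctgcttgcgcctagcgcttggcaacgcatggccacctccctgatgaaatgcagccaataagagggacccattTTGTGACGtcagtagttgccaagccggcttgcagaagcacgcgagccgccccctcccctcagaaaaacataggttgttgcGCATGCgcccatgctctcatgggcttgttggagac
Shank2 intron (chr7:144074801-144074980, plus strand): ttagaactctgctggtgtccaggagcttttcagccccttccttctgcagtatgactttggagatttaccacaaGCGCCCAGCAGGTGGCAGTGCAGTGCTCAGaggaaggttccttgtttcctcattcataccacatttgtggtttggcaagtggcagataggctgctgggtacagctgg
Shank3 intron (chr15:89530479-89530614, plus strand): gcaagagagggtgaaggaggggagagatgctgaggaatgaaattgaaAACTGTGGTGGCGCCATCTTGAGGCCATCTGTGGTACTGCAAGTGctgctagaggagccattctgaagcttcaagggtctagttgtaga
Dlgap1 intron (chr17:70429809-70430000, plus strand): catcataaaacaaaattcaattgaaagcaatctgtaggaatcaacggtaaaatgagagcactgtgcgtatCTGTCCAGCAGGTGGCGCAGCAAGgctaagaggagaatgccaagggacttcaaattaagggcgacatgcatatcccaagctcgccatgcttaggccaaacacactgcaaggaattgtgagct
Camk2b intron (chr11:5996074-5996215, minus strand): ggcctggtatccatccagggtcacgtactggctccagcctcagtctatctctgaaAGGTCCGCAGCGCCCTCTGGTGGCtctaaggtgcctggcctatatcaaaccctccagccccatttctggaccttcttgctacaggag

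Nearly all members had a promoter DHS at this age. A promoter DHS was present in both libraries at 8 of the 9 genes, where 55.7% of all protein-coding genes had one. The exception was Shank1, which encodes a scaffold that binds GKAP and Homer proteins. Replicate 1 had a promoter call at 8 members, against 57% of all genes, and replicate 2 at 9, against 60.2%. In the lenient lists all 9 were called in both libraries, against 61.5%. A gene counts when any of its starts is called, and these shares were not matched for the number of starts. The 9 members have 25 start sites, while all 21851 genes have 28499. Per start site, 10 of the 25 had a DHS in both libraries, against 47.1% of all start sites. The strongest promoter call of the members had a median signal value of 1.1 in replicate 1 (8 genes) and 3.34 in replicate 2 (9 genes). All genes with a promoter call had medians of 1.56 and 4.08 in the same libraries. The member medians lay below those of all called genes in both libraries.

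By the 1 kb window Homer1 and Dlg2 had the strongest promoter calls, but the Dlg2 one is centred outside that window. Homer1 had 2.17 in replicate 1 and 7.96 in replicate 2, at percentiles 78.5 and 83.6 of the called genes. Its DHS, at chr13:93303521-93304040, spans the first protein-coding start and has a CpG observed to expected ratio of 0.955. Replicate 1 had a further call of 1.22 just downstream and replicate 2 had one with a value of 1, and these did not overlap. Dlg2 had 1.96 and 8.2, at percentiles 69.9 and 84.9. That DHS, chr7:90475901-90476400, is centred 1.08 kb upstream of the first Dlg2 start. Only the last bases of its replicate 2 call, which ends at chr7:90476240, lie within 1 kb of that start, at chr7:90477231. The DHS overlaps an exon of Tmem126b and lies in the promoter window of Tmem126b as well. Its value therefore cannot be given to Dlg2 alone. The start that no other gene shares, 613 kb further in, had 0.743 and 0.851.

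Dlg4 differed most between the libraries in its rank. It had 1.15 in replicate 1, at percentile 27.9, and 6.48 in replicate 2, at percentile 73.8. The ratio of replicate 2 to replicate 1 was 5.61 at Dlg4, the highest of the 8 members called in both. The members' median ratio was 3.33, and that of all genes called in both was 2.74 with quartiles of 2.13 and 3.45.

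The Shank genes, whose products are the lower tier of the scaffold that reaches toward the actin cytoskeleton, had low to middling values. Shank3 had 1.55 in replicate 1 and 2.97 in replicate 2, at percentiles 49.3 and 35.9. These come from different DHSs, since the upstream one had 0.953 and 2.97 and the one past the start 1.55 and 2.35. Shank2 had 0.981 and 2.74, at percentiles 19.3 and 32.8, likewise from different start sites. Shank1 had no call in replicate 1, a lenient call of 0.869 there, and 1.86 in replicate 2, at percentile 20.4. Shank1 was thus the lowest member in replicate 2 and the only one without a stricter call in replicate 1.

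Dlgap1 and the 2 kinase genes were close together. Dlgap1 had 1.01 in replicate 1 and 3.34 in replicate 2, at percentiles 21 and 41. Camk2a had 0.985 and 2.77, at percentiles 19.5 and 33.2. Camk2b had 1.04 and 3.5, at percentiles 22 and 43.2. All 3 stood in the lower part of the called genes in both libraries.

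If that unit is 1 tag, the member values stand for 210 to 465 tags in replicate 1 and 236 to 1041 in replicate 2, and exact Poisson intervals (95%) give the counting error alone. In replicate 1 the order was Homer1, Dlg2, Shank3, Dlg4, Camk2b, Dlgap1, Camk2a and Shank2. The intervals of Homer1 (1.98 to 2.38) and Dlg2 (1.78 to 2.16) overlapped. Dlg2 and Shank3 (1.39 to 1.73) did not overlap, nor did Shank3 and Dlg4 (1.01 to 1.31), and each neighbour below Dlg4 overlapped the next. In replicate 2 the order was Dlg2, Homer1, Dlg4, Camk2b, Dlgap1, Shank3, Camk2a, Shank2 and Shank1. Dlg2 (7.71 to 8.71) and Homer1 (7.47 to 8.46) overlapped, while Dlg4 (6.04 to 6.93) lay apart from Homer1 above it and Camk2b (3.18 to 3.84) below it. Each neighbour in the row from Camk2b to Shank2 overlapped the next, and Shank1 (1.63 to 2.11) lay below Shank2 (2.46 to 3.04). Homer1 and Dlg2 led in both libraries, but the Dlg2 value is that of the DHS also in the Tmem126b promoter window. The Dlg2 start that no other gene shares had 0.743 and 0.851, below every other called member in each library. The place of Dlg4 and Shank3 changed between the libraries, with Shank3 taken from a different DHS in each.

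**Figure D1:**
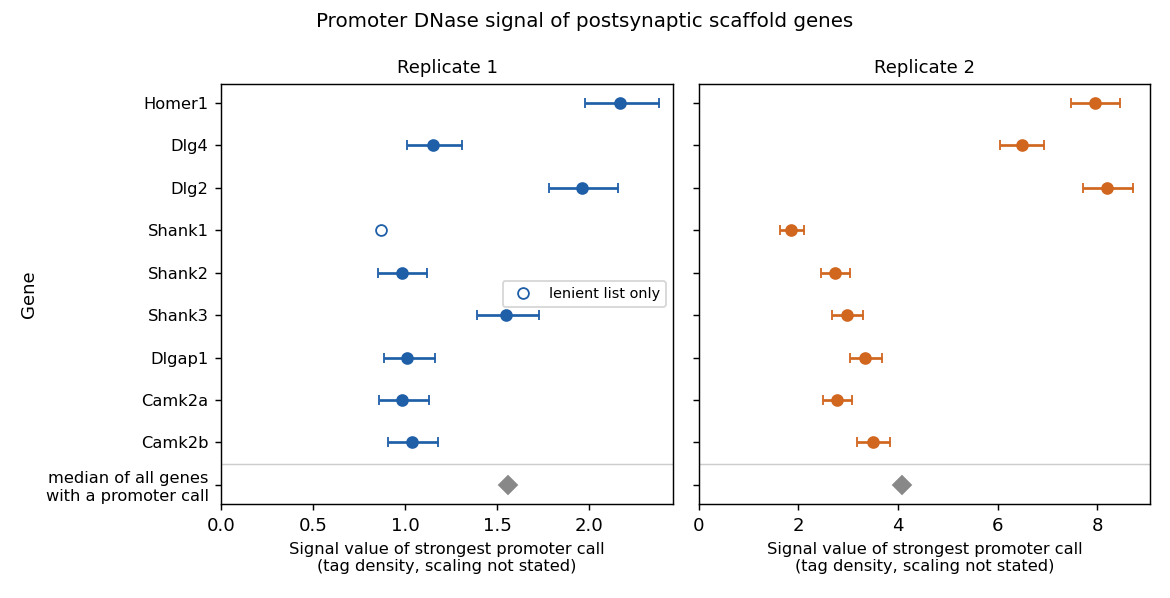
Signal value of the strongest promoter call of each gene (x axis, tag density with its scaling not stated) in replicate 1 (left) and replicate 2 (right), with exact Poisson 95% intervals if the smallest unit of the values is 1 tag; the open point is a call of the lenient list only and diamonds are medians of all genes with a promoter call. Homer1 and Dlg2 lead in both panels at 2.17 and 1.96 and at 7.96 and 8.2, while Dlg4 stands at 1.15 on the left and 6.48 on the right. The Dlg2 points are of a DHS that is centred more than 1 kb from the Dlg2 start and lies in the promoter window of Tmem126b as well.

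Of the members, 8 have several annotated start sites. Starts of a gene within 500 bp of the next were joined, which gave 25 start sites in the 9 genes. A DHS of both libraries lay at 10 of the 25, against 47.1% of all start sites. In the 8 members with several, the most upstream site was called in 5, against 45.4% of such sites in all genes. Among the 5 is the first Dlg2 start, called through the DHS also in the Tmem126b promoter window. Without calls shared with another gene's promoter, 9 of the 25 sites were called. Of the 16 later sites 4 were called, a share close to the 24.8% of all genes.

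Dlg4 was called in both libraries at its last start only. The site 12.5 kb into the gene carried the 1.15 and 6.48 given above. The site at 1.5 kb had 2.62 in replicate 2 and, in replicate 1, a lenient call of 1.03 only. The site at 10.8 kb had a lenient call of 1.11 in replicate 2, and the first site had no call in any list and no base with a false discovery rate under 0.05 in either library.

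Shank2 also lacked a call at its first start. Its second site, 174 kb in, had 0.883 in replicate 1 and 2.74 in replicate 2, and its last, 283 kb in, had 0.981 and 1.87. No base under 0.05 lay at the first site. In Shank1 the first site had the calls already given, and the site at 2.44 kb had 1.24 in replicate 2 and no call in replicate 1.

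Dlgap1 was called at its first start, the one with 1.01 and 3.34. Of its 4 later sites, the one at 553 kb had 0.575 in replicate 2 and a lenient call of 0.518 in replicate 1, and the one at 547 kb a lenient call of 0.481 in replicate 2. The sites at 456 and 592 kb had no base under 0.05 in either library. The same held for the second start of Camk2a at 37.9 kb, of Homer1 at 4.28 kb and of Shank3 at 24.1 kb, and for the last 2 of Dlg2 at 1234 and 1585 kb.

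CpG content separated the called starts only in part. The CpG observed to expected ratio was taken 500 bp either side of a start, and its median was 0.338 at the 25 member starts and 0.461 at all start sites. Of 6 member starts at 0.6 or more, 5 were called in both libraries, against 89.6% of such starts in the genome. Of 19 under 0.6, 5 were called, against 18.3%. The CpG-rich starts that were called belong to Camk2b (0.985), Homer1 (0.919), Dlgap1 (0.867), Shank3 (0.844) and Shank2 (0.607). The later Shank3 start had a ratio of 0.863, about that of the first, with no call in any list. Camk2a was called at a start with a ratio of 0.297 and Dlg4 at one of 0.322, while Camk2b, the gene of the other kinase subunit, was called at its single CpG-rich start.

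**Figure D2:**
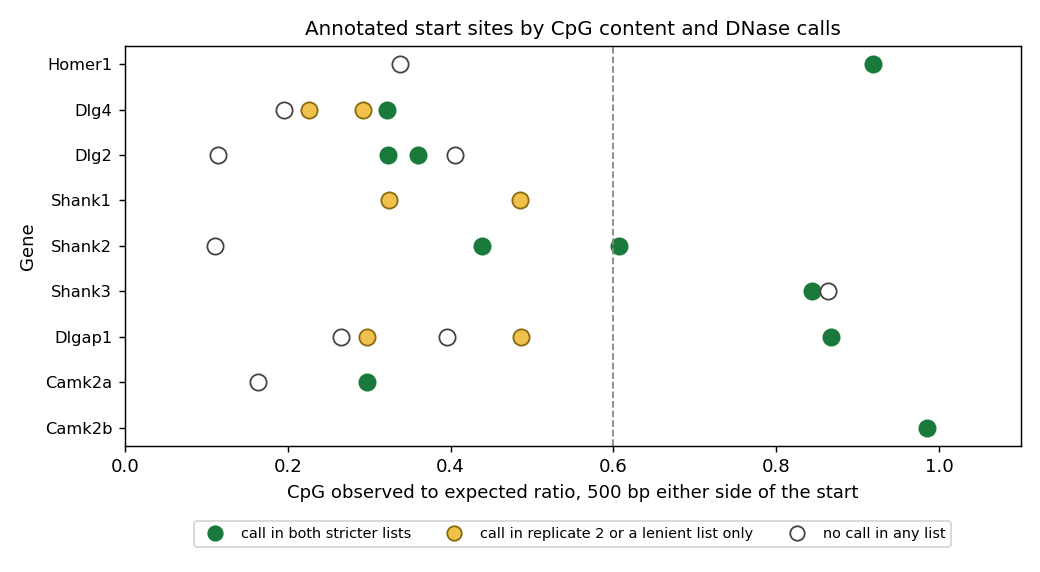
CpG observed to expected ratio (x axis) of the 25 annotated start sites of the 9 genes (y axis), coloured by calls within 1 kb; the dashed line is at 0.6. Green points, called in both stricter lists, make up 5 of 6 sites right of the line and 5 of 19 left of it, and the open point at 0.863 is the later Shank3 start.

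The windows held 69 shared DHSs over 4554 kb, 15 at promoters of the members, 18 at promoters of other genes and 36 distal. At least 1 distal shared DHS lay in the window of 8 of the 9 members, against 54.2% of all genes. That share was not matched for window length, which ran from 131 kb (Dlg4) to 2073 kb (Dlg2) in the members. Homer1 was the exception, with 0. Per 100 kb the 9 members had a median of 1.02 distal shared DHSs, and all protein-coding genes had 0.525. Genes over 100 kb had a median of 0.382. The members of that length had 0 (Homer1), 0.241 (Dlg2), 0.735 (Dlgap1) and 1.34 (Shank2). Single libraries gave 63 distal calls in replicate 1 and 91 in replicate 2, and the lenient lists 74 shared ones, so the count depends on the list.

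Shank1, which lacked a shared promoter DHS, had the densest distal set. It had 9 distal shared DHSs, or 5.99 per 100 kb, at percentile 99.4 of all genes. The strongest by the geometric mean of both libraries, chr7:44304641-44305260, had 2.44 in replicate 1 and 9 in replicate 2, lies 5.3 kb upstream of the first start and overlaps an exon of Clec11a. A DHS 47.3 kb upstream had 2.73 and 7.04. The DHSs 43, 49.3 and 50 kb from the first start lie in a run of replicate 1 calls described further below. Past the gene, 95.7 kb from the start, chr7:44405761-44406100 had 1.12 and 5.17 and is printed above. Distance does not tie these sites to Shank1, whose window holds other genes.

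Dlg4 had 3 distal shared DHSs, or 2.3 per 100 kb, at percentile 90.3. The intronic one at chr11:70021381-70021840 had 2.75 and 10.4, above the values of every Dlg4 promoter call in the same library. It lies 2.73 kb downstream of the nearest Dlg4 transcript start, and its CpG ratio was 0.675 with a GC content of 60.9%. Its printed stretch holds several copies of GGGCGG, the core of the GC box that Sp proteins bind. The site at 38.8 kb had 1.27 and 1.84, and the site at 57.9 kb had 0.962 and 1.9.

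Dlg2 and Dlgap1 are the longest genes of the set. Dlg2, with a window of 2073 kb, had 5 distal shared DHSs, or 0.241 per 100 kb at percentile 46.5, and the strongest, chr7:90887001-90887580, had 0.757 and 1.36 and overlaps exons of the non-coding genes Gm45159 and Gm45161. Dlgap1 had 7 in 952 kb, or 0.735 per 100 kb at percentile 56. Of these 6 lay 461 to 786 kb into the gene, whose body is 852 kb long. The strongest, chr17:70755061-70755220, had 1.61 and 2.84 and lies in an exon of the non-coding gene 5031415H12Rik. The Dlgap1 site at chr17:70633561-70633760 had 1.2 and 3.46, the highest distal value of the gene in replicate 2.

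Shank2 had 7 distal shared DHSs, or 1.34 per 100 kb at percentile 76.8. The strongest by that mean, chr7:144074801-144074980, had 1.37 and 2.64. Shank3 had 1, or 0.623 per 100 kb at percentile 52.2. It is an intronic site of 136 bp, chr15:89530479-89530614, with 1.37 and 1.72. Camk2a had 2, or 1.23 per 100 kb at percentile 75.9. The stronger lies in an intron 52.9 kb from the start with 1.71 and 4.17, above the promoter in both libraries. Camk2b had 2, or 1.02 per 100 kb at percentile 74.4. The one at chr11:6000380-6000780 had 0.925 and 3.11, below its promoter in both. In Homer1 the stricter distal calls were 2 of replicate 2, with 0.52 and 0.764, and a lenient call of replicate 1 with 0.332 overlapped the first.

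**Figure D3:**
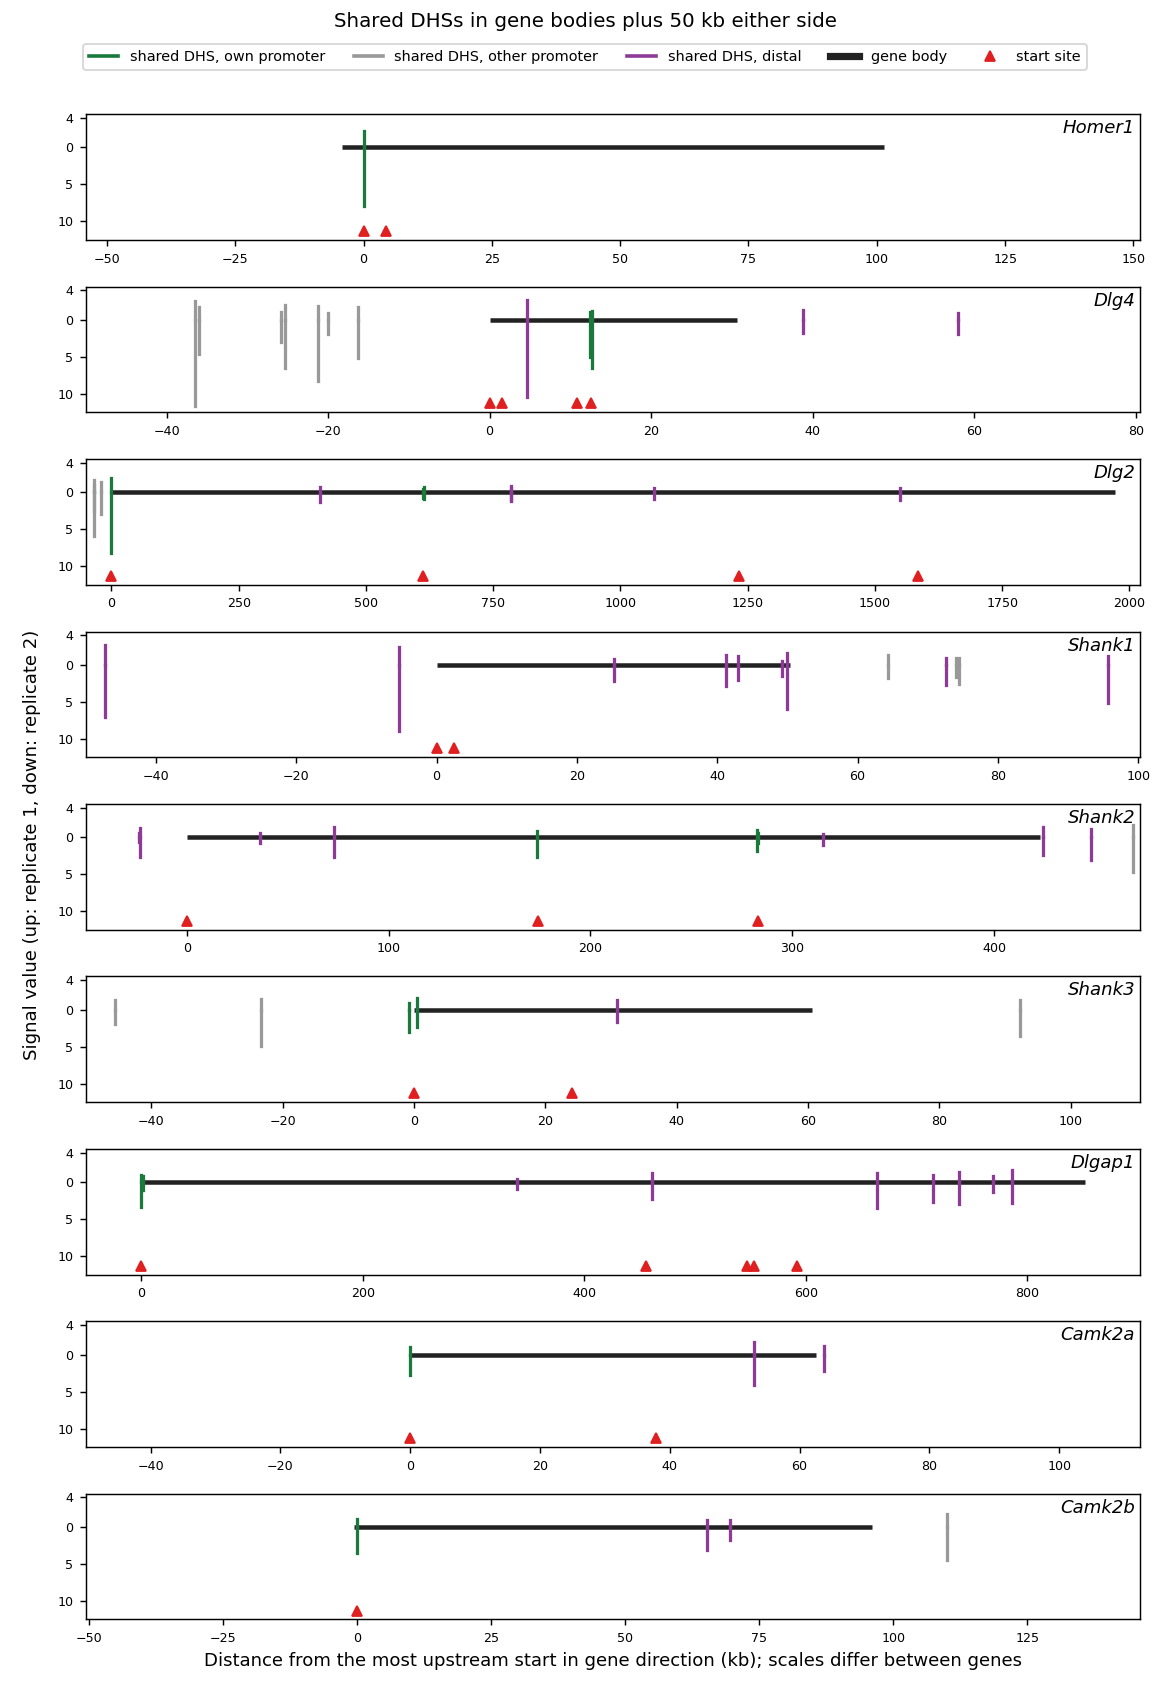
Shared DHSs of each gene by distance from its most upstream protein-coding start in gene direction (x axis, kb; scales differ), with the signal value of replicate 1 drawn up and of replicate 2 drawn down; triangles are start sites and black bars gene bodies. Homer1 has a single shared DHS, Shank1 has 9 distal ones and none at its starts, and the tallest purple line in Dlg4 is its intronic DHS with 2.75 and 10.4.

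By position, 22 of the 36 distal shared DHSs (61.1%) lay in introns, 7 (19.4%) touched exons and 7 (19.4%) were intergenic. Of all distal shared DHSs 38.1% were intronic, 17.2% exonic and 44.7% intergenic. The member windows are centred on gene bodies, while all distal shared DHSs come from anywhere in the genome. Within 1 kb of a non-coding start lay 2 of the 36, the Dlg2 and Dlgap1 sites named above. That share was not computed over all distal shared DHSs, so the count is a description only.

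The share of DHSs with a footprint was close to that in the rest of the genome. Both libraries had a footprint in 63 of the 69 shared DHSs (91.3%, exact binomial 95% interval 82 to 96.7) and in 91.1% of the other shared DHSs. At promoters the shares were 87.9% in member windows and 89.2% in the rest, and at distal sites 94.4% and 93.5%. The overlap of footprint positions between the libraries was computed in the member windows alone, without a share over all shared DHSs. In the 15 member promoter DHSs, bases in a footprint of both libraries made up 44.9% of the footprint bases of replicate 1 and 24.6% of those of replicate 2. In the 36 distal ones the shares were 66.6% and 42.7%.

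Long runs of capitals stand over CTCF matches in 3 of the printed distal sequences. CTCF holds chromatin loops and boundaries and protects a long stretch from cutting. A CTCF match lay in the central 300 bp of 8 of the 36 distal shared DHSs (22.2%), against 18.8% of all distal shared DHSs, and in none of the 15 member promoter DHSs, against 1.24% of all promoter ones. Of the 8, 3 lay in Dlgap1 introns, 2 each in the Shank2 and Camk2a windows and 1 in a Camk2b intron. All 8 matches were covered whole, 12 of 12 bases, by footprints of both libraries. Among all distal shared DHSs 97.2% of 2189 CTCF matches touched a footprint of both, and whole coverage was not counted there. In the Shank2, Dlgap1 and Camk2b sequences printed above, the capitals include the match. It runs with the gene in Shank2 and Dlgap1 and against it in Camk2b.

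The Shank3 intronic DHS has a single protected run of 45 bases in its 136, without a CTCF match. It holds CAGATGG, an E-box of the neurogenic bHLH type, on the opposite strand, whole inside the footprints of both libraries. In the central 300 bp that motif was found for 3 member distal DHSs (8.33%) and for 10.1% of all distal ones. Of 4 matches over the whole length of the member DHSs, all in distal ones, 1 touched a footprint of both. Of the 1151 matches in all distal shared DHSs 30% did.

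The cyclic AMP response element TGACGTCA, bound by CREB proteins, occurred at 2 places. In Dlg4 it lies in the promoter DHS chr11:70029201-70029500, at chr11:70029353-70029360, in lower case in the sequence above since the footprints of replicate 2 covered 4 of its 8 bases and those of replicate 1 none. In the DHS past Shank1 5 of its 8 bases were inside footprints of both, beside an overlapping pair of GCGCATGCG matches, the motif of NRF1. In the central 300 bp, TGACGTCA was found for 3.05% of all promoter shared DHSs and for 0.831% of all distal ones.

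Within 300 bp around the DHS centre, which may reach past a short DHS and miss the ends of a long one, GGGCGG was found for 7 of 15 member promoter DHSs (46.7%) against 68.3% of all promoter ones, and for 9 of 36 distal ones (25%) against 22.2%. In the same window CAGCTG, another E-box, was found for 5 promoter DHSs (33.3%) against 16.7%, and for 12 distal ones (33.3%) against 22.4%. Of the 23 CAGCTG matches inside the 69 member-window DHSs, over their whole length, 2 touched a footprint of both libraries. Of 6984 matches in all shared DHSs 7.56% did, a similarly low share. Both strands were searched, and these letter matches are descriptions.

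Calls of 1 library formed runs at the 3′ parts of Dlg4 and Shank1, a pattern chosen after the values were seen. In Dlg4, replicate 2 had 15 calls from 22.1 to 31 kb from the first start, where the gene ends at 30.6 kb. Their signal values were 0.276 to 0.607 with a median of 0.418, a level that 4.64% of the calls of that library did not pass. Replicate 1 had no call there in either list. Exons of any gene made up 57.8% of the called bases and 31% of the span from 20 to 35 kb. That span is wider than the run and reaches past the gene end, so these shares do not show a preference for exons.

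In Shank1 the run was of replicate 1, with fewer calls of replicate 2. Replicate 1 had 19 calls from 41.7 to 53.5 kb, past the gene end at 50.3 kb, with values of 0.196 to 1.57 and a median of 0.56, about the middle of that library. Replicate 2 had 3, with 1.55, 2.1 and 5.94, and 7 in its lenient list. Exons made up 76.4% of the bases called in replicate 1 and 57.1% of a span from just before the first of them to 55 kb. Here too the span reaches past the last call and the gene end, so these shares do not show a preference for exons. These runs give 15 of the 19 distal calls of replicate 2 at Dlg4 and 19 of the 27 of replicate 1 at Shank1, and their cause was not tested.

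**Figure D4:**
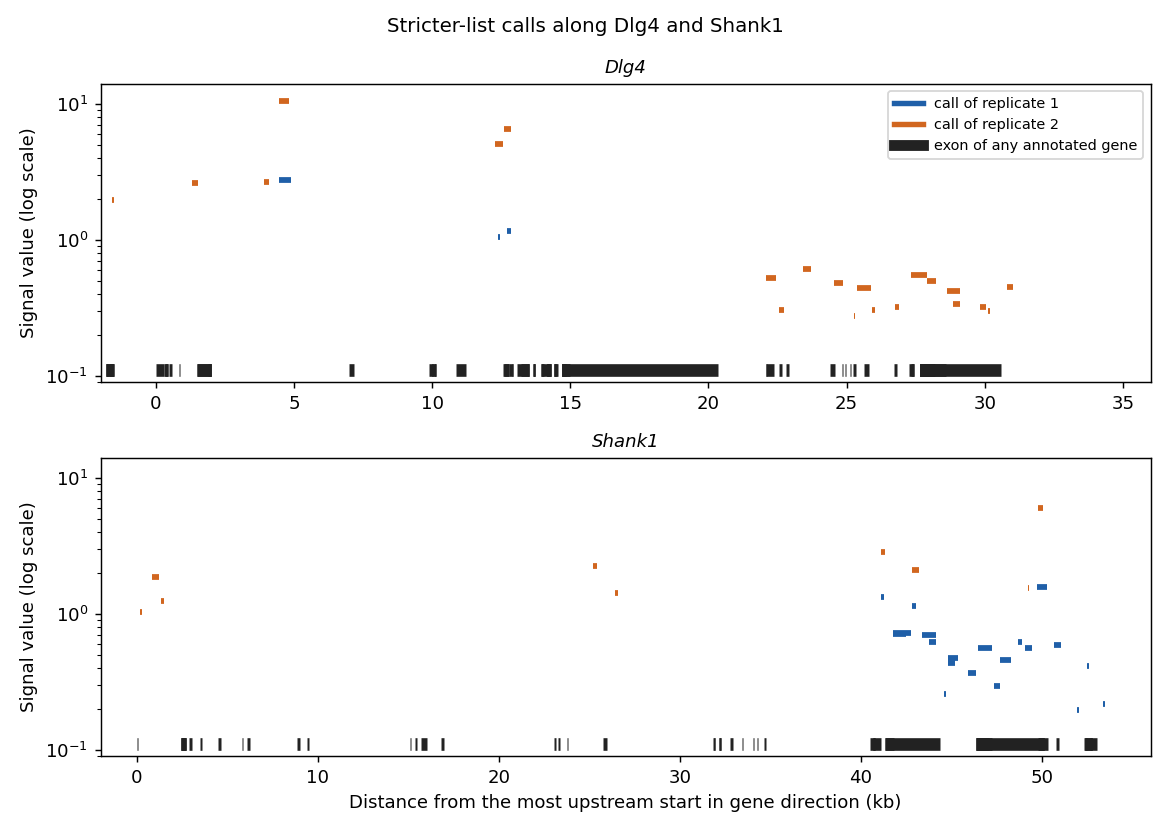
Signal value (y axis, log scale) of each stricter-list call along Dlg4 (top) and Shank1 (bottom) by distance from the most upstream start (x axis, kb), with exons of any annotated gene in black. Low orange calls of 0.276 to 0.607 line the last part of Dlg4 in replicate 2 alone, and blue calls of 0.196 to 1.57 that of Shank1 in replicate 1.

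Over all member windows, 74 of the 106 calls of replicate 1 (69.8%) overlapped a call of replicate 2, against 48.1% of all calls of that library. Of the 144 calls of replicate 2, 74 (51.4%) overlapped one of replicate 1, against 60.7%. For distal calls alone the shares were 60.3% in replicate 1, against 30.3%, and 40.7% in replicate 2, against 45.2%. The member calls include the runs at Shank1 and Dlg4 described above. By gene, over promoter and distal calls together, the share in replicate 2 was lowest at Homer1 (1 of 4), Camk2b (4 of 12) and Dlg4 (13 of 31). It was highest at Shank1 (13 of 17). In replicate 1 it was lowest at Shank1 (14 of 33), while Camk2b had 4 of 4 and Dlg4 12 of 14. Camk2b had calls of replicate 2 that only lenient calls of replicate 1 overlapped, 10.1 and 21.6 kb upstream of its start. Their values were 1.87 and 1.5 in replicate 2, and 0.644 and 0.672 in the lenient list of replicate 1. The site in an intron 34.9 kb in had 2.79 and, in that lenient list, 0.813. Shank3 had such a site in an intron 33.2 kb in, with 3 in replicate 2 and a lenient 0.985 in replicate 1.

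The members were set beside 24 other genes of the postsynaptic density. A promoter DHS was shared by 8 of the 9 members and by 19 of the 24 others, and in the lenient lists by 9 and by 24. The members' called promoters had medians of 1.1 in replicate 1 and 3.34 in replicate 2, and the others had 1.36 and 2.5. The members' median of distal shared DHSs was 1.02 per 100 kb and the others' 0.562. The highest of the others by rank over both libraries were Baiap2 (3.08 and 11.2), which encodes an actin-linked partner of Shank proteins, Sipa1l1 (2.23 and 7.96), a GTPase-activating scaffold that binds PSD-95, and Dlgap4 (2.06 and 6.85), a relative of Dlgap1. The lowest were Begain, Homer2 and Kalrn, with no call in replicate 1, lenient calls there of 0.808, 0.607 and 0.537, and 1.49, 1.24 and 1.17 in replicate 2. Homer1 thus had 2.17 and 7.96 where its relative Homer2 had 0.607, lenient only, and 1.24, and Homer3 had 1.77 and 2.79.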

How the data were processed

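DNase-seq of 2 libraries of 1 group was analysed in mm10 coordinates, per the file headers. The deposited peak lists give the authors' signal value per call, a tag density whose scaling is not stated. The deposited cut-rate files give false discovery rates (q-values) under 0.05, and the deposited footprint files carry the value 0.01 on every line, taken as a threshold p-value. The aligner, the caller and the treatment of CAST reads in mapping were not given in the sources used here. Lists were made per library with no pooling, per the file headers.

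The GRCm38.p6 genome and GENCODE M21 basic annotation gave starts, CpG ratios and the exons used to place DHSs. The comprehensive GENCODE annotation gave the exons for the printed stretches and for the runs in Dlg4 and Shank1. It also gave the non-coding starts set beside the distal shared DHSs. Overlaps of 1 bp or more counted. Python 3.11.15, pandas 2.3.3, numpy 2.4.6, scipy 1.17.1, pysam 0.24.0 and matplotlib 3.10.9 were used, and the interval code was tested on simulated data. With 1 group there was no comparison of groups and no test: members are set beside all genes. A percentile is among genes with a promoter call of that library or, for distal density, among all genes. Every member was described, with its strongest distal shared DHS by the geometric mean of both libraries. The members and lists were chosen with earlier results of these data known. Intervals cover counting error only.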

Additional observations from a re-analysis of the deposited data

How the results depend on the processing

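Of 45 values under other settings, 40 kept within 1.5 times their reported value or, for the footprint share, within its interval. The distal count of 36 became 74 with the lenient lists, and the footprint share 81.1%. With 1 library alone, the members with a promoter DHS were 8 to 9, their called starts 10 to 14, the distal calls 63 to 91 (36 shared) and the footprint share 74.5% to 83.3%, the low ends of all 4 in replicate 1. No paired analysis was possible because there is 1 group. Settings added after seeing the data left 8 members, 9 starts and medians of 1.03 and 2.97 when calls shared with another gene's promoter were dropped, 29 distal DHSs when those under 0.6 in replicate 1 were dropped, and 34 when starts of every gene type counted as promoters. The strongest 20000 calls of each library gave 8 members, 9 starts and 24 distal DHSs. The depth is implied, not stated, and calls are listed only above the authors' threshold, so a start without a call is not shown to be closed.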

Other observations

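The windows also hold 18 shared DHSs at promoters of other genes. These include 7 that lie 16.3 to 36.5 kb upstream of Dlg4, at Dvl2, Phf23, Gabarap, Ctdnep1 and Elp5. The Dlg4 promoter had 1.15 in replicate 1 and 6.48 in replicate 2. The strongest of the 7, in the promoter windows of Ctdnep1 and Elp5, had 2.52 and 11.6, and the Phf23 promoter had 1.87 and 8.25. Gabarap, which encodes a protein that traffics GABA-A receptors and takes part in autophagy, had 2.05 and 6.57, and Dvl2 had 1.81 and 5.1.

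Shank2 had 0.981 and 2.74 at its promoters, while the nearby promoter of Cttn, whose product cortactin binds actin and Shank proteins, had 1.63 and 4.73. In the Shank1 window 2 DHSs at Syt3, a synaptotagmin gene, had 0.915 and 1.65 and 0.859 and 2.63. At Shank3 the neighbour Mapk8ip2, which encodes a scaffold of the JNK pathway, had 1.34 and 1.92, and Arsa had 1.42 and 4.92.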
